A study of Erythranthe pardalis x Erythranthe guttata and Erythranthe pardalis with 20 samples.

Results

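The comparison is between whole hybrid seeds at 2 DAP and at 8 DAP (days after pollination), read gene by gene from RNA-seq counts. The 8 libraries were chosen by their labels alone, 4 labelled as 2 DAP seeds and 4 labelled as 8 DAP seeds, out of 20 libraries in the series, which also holds unfertilized ovules and seeds of 4 DAP and 6 DAP. Both groups came from the same cross, with SEC39, an inbred line of Mimulus pardalis (Erythranthe pardalis), as the mother and CSS4, an inbred line of Mimulus guttatus, as the pollen donor, so that they share parents and treatment and differ in age. Library numbers also followed age: 11, 16, 18 and 20 at 2 DAP, and 3, 6, 9 and 14 at 8 DAP. The parts of library number and age in the results can hardly be told apart. Seeds held a very young embryo at 2 DAP and a heart-stage embryo at 8 DAP. They were taken out of the fruit by hand, and some placental tissue of the mother may have come with them. Each library is a pool of seeds. The methods describe a pool as the seed of 1 maternal plant and the deposited record as fruits of different plants, and the library names of the record number the 2 DAP pools differently from the study's list of libraries. The p-values therefore measure the spread between these pools, whatever their plants, and it is not settled that libraries of the same replicate number share a mother.

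A seed of a flowering plant holds an embryo, the endosperm that feeds it, and a seed coat that belongs to the mother. The young seed grows by cell division and by loosening of cell walls. Later the embryo and endosperm fill with storage proteins and with oil, which is kept in droplets coated by oleosins, under transcription factors such as ABI3, FUS3 and the LEC1 group that are best known from Arabidopsis. All 3 tissues were sequenced together here, so that a lower share of cells of one tissue and less RNA per cell cannot be told apart for any gene below.

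The 8 libraries had 12134820 to 16121733 counts each. Values are given as normalized CPM, which are counts per 1000000 of a library's total after TMM scaling, and replicate values are listed in the order of replicates 1 to 4. A log2 difference is 8 DAP against 2 DAP from the fit over all 20 libraries, with its standard error (SE), and an adjusted p is that of edgeR's quasi-likelihood test after Benjamini-Hochberg adjustment over all genes tested. Rose, fell and called stand for an adjusted p under 0.01. Where a fit with the replicate number as a block over the 8 libraries (the blocked fit), a fit of the 8 libraries alone, or DESeq2 ended a call, its adjusted p is given beside it. A count of 0 was read as up to 3 counts per library, and a fold against a group with no count is given as a lower bound from that limit, which like the intervals of count ratios below covers counting error only.

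Some libraries stood apart from others of the same age. Across genes, 2 DAP replicate 1 had a Pearson correlation of 0.913 with the mean of the other 2 DAP libraries and of 0.960 with the mean of 4 DAP, while the other 2 DAP replicates had 0.942 to 0.975 with their own age. Its TMM factor was 1.33 against 0.716 to 0.860 in the other 2 DAP libraries and 0.731 to 0.866 at 8 DAP. The median SD of log2 CPM was 0.577 among the 2 DAP libraries, 0.423 without replicate 1, and 0.343 among the 8 DAP libraries. Within 8 DAP, replicate 2 was the lowest of 4 in 47.5% of the genes that rose. The part of these differences in the results was not tested, and counts without these libraries are given below.

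Of 28140 genes in the files, 3615 had no count in the 8 libraries and 20242 passed the filter on low counts. Of these, 4081 (20.2%) were called, with 2003 (9.9%) higher and 2078 (10.3%) lower at 8 DAP. The 4 libraries of one age lay wholly apart from the 4 of the other in 5716 genes (28.2%), every 8 DAP library being the higher in 14.7% and the lower in 13.6%. Rises had a median log2 difference of 2.27 and falls one of -2.12. Changes of at least 4 on the log2 scale were found in 483 rises and in 451 falls. The median over all genes was -0.12.

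Of the genes that rose, 78 had no count in any 2 DAP library, and of those that fell, 133 had none in any 8 DAP library. Without 2 DAP replicate 1 the counts were 1768 higher and 2000 lower, and 82.3% of the 4081 calls were kept. Scaling by total counts in place of TMM shifted all genes by a median of -0.24 on the log2 scale and gave 1585 higher and 2495 lower.

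In the sections that follow, genes are grouped by 24 lists made from the nearest Arabidopsis homologue of each gene, 335 genes in all, of which 308 were tested. Only 90 of the 335 came from an unselected stretch of the annotation. The others came from tables or text in which the study had picked genes on these same libraries, so a list's count is a description and not independent evidence of its direction. Of the 4521 tested genes with a row in the study's annotation, 677 were higher and 797 lower, a larger share than over all genes tested. Each list count below is to be read beside these numbers and beside 9.9% higher and 10.3% lower over all genes tested. Over the 20242 genes DESeq2 called 2507 higher and 2593 lower, and edgeR's likelihood ratio test 2416 and 2673. In all, 155 of the list genes were called, 95 higher and 60 lower, and 88 higher and 63 lower without 2 DAP replicate 1.

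**Figure D1:**
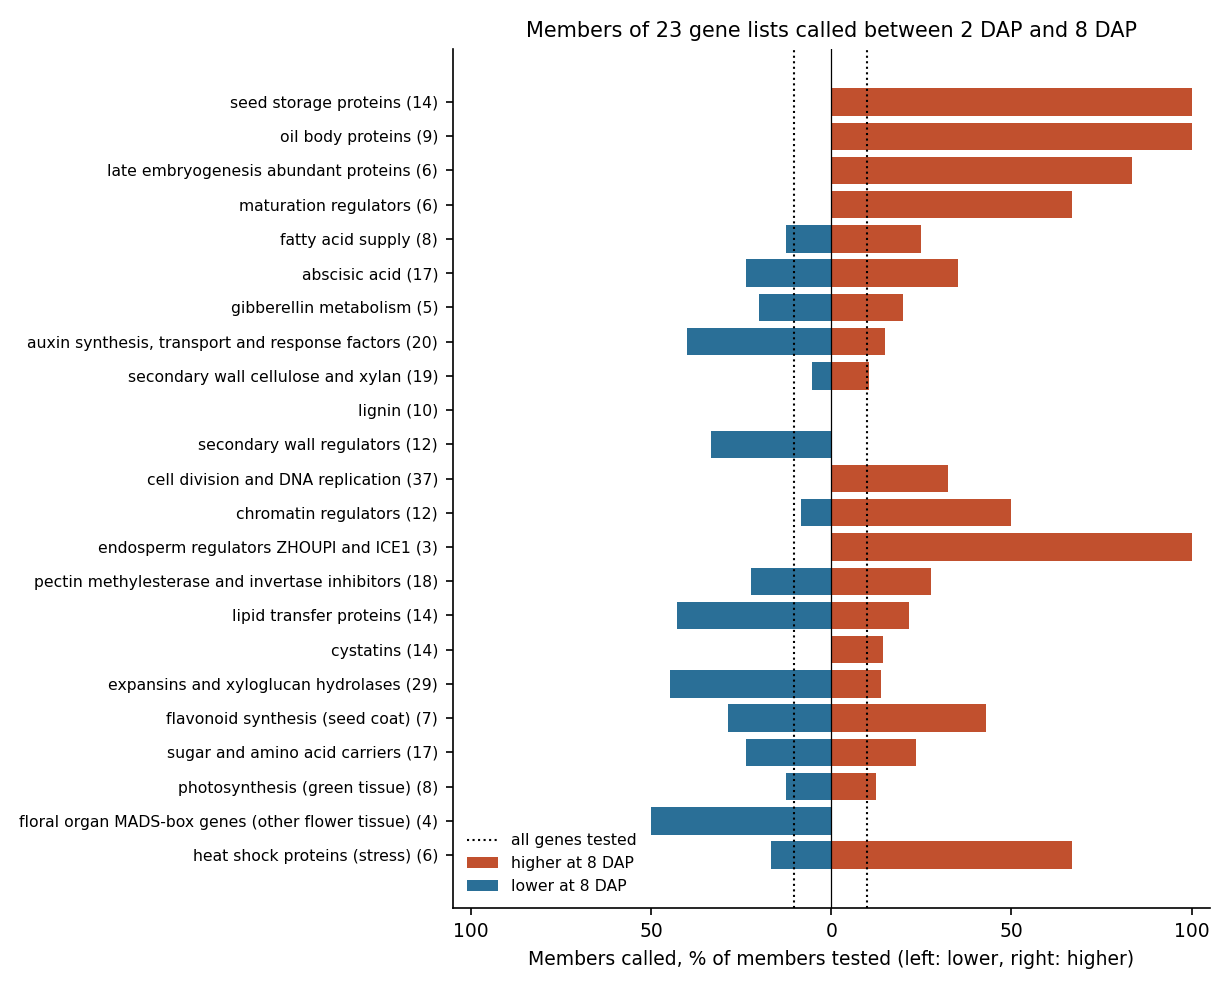
Bars show the share of tested members of each list reported here (their number in brackets) that were called higher at 8 DAP (right, orange) or lower (left, blue), in percent, and the dotted lines mark the shares over all 20242 genes tested, 9.9% higher and 10.3% lower. All tested storage and oil body genes were higher, none of the lignin genes was called, and several lists had members on both sides.

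All 14 genes for seed storage proteins rose, as did all 9 tested genes for oil body proteins and 5 of 6 genes for late embryogenesis abundant (LEA) proteins, which are known for protecting drying cells. The median log2 difference was 12.29 for the storage list, or 10.6 with the groups that had no count set to their limit, 8.10 for the oil bodies and 6.51 for the LEA list. The 14 storage genes and most of the others were among those the study had picked on these libraries.

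The storage genes include 2S albumins, small sulphur-rich proteins, and 12S globulins. The 2S albumin Migut.M01806 stood at 1.04, 0, 0 and 0 at 2 DAP and at 3267, 225.3, 7488 and 7365 at 8 DAP. Its neighbour in the annotation, Migut.M01805, stood at 0.882, 0, 0 and 0 and at 2639, 183.3, 6092 and 5833. For the 12S globulin Migut.D00426 the values were 0.519, 0.767, 0.433 and 0.451 at 2 DAP and 1063, 155.7, 3380 and 3143 at 8 DAP. In each of them the ages were wholly apart, by log2 differences of 13.72 (SE 1.85), 13.61 (SE 1.86) and 11.79 (SE 1.14), with adjusted p of 1.0e-05, 1.8e-05 and 2.0e-07 in edgeR's quasi-likelihood test. Only uniquely mapped reads were counted, so any reads that fit more than 1 copy are missing from single values and sums alike. How alike these copies are was not examined.

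Within 8 DAP the reserve genes did not move evenly. Replicate 2 was the lowest of the 4 libraries in 14 of 14 storage genes, in 9 of 9 oil body genes and in 6 of 6 LEA genes. The summed level of the storage list was 9152 in replicate 1, 830.3 in replicate 2, 23050 in replicate 3 and 22330 in replicate 4, against 0.607 to 3.47 at 2 DAP. At 6 DAP it was 3.04, 2.21, 26.6 and 2.79, so that all but replicate 3 lay within the range of 2 DAP. A pair of vicilin-like globulins of the PAP85 type, Migut.N02035 and Migut.O00476, picked out after their values were seen, had no count in replicate 2 nor at 2 DAP. They were at 19.4, 88.7 and 90.0 and at 20.5, 92.1 and 73.7 in the other 8 DAP libraries, on average at least 203.5-fold and 191.3-fold higher than at 2 DAP. The call of Migut.N02035 was lost without 2 DAP replicate 1, 2 or 4 (adjusted p 0.0106 to 0.0121), and both calls were lost from the 8 libraries alone (0.0448 for Migut.N02035 and 0.0440 for Migut.O00476) and with DESeq2 (0.0366 and 0.0382). The storage list had 12 to 14 calls when any 1 library was left out, and 14 without 8 DAP replicate 2.

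Oil bodies are coated by oleosins and caleosins. The oleosin Migut.F00529 was at 0.311, 0, 0.694 and 0 at 2 DAP and at 1348, 476.2, 2794 and 2824 at 8 DAP, a log2 difference of 12.74 (SE 1.14, adjusted p = 8.2e-08, edgeR's quasi-likelihood test). A further oleosin, Migut.A01025, had 9.10 in 2 DAP replicate 3 against 0.104 to 0.451 in the others of its age, and 33.3 to 466.9 at 8 DAP. Caleosin Migut.G00483, picked after its values were seen, was measurable at both ages, with 1.08 to 1.65 at 2 DAP and 49.2, 10.6, 79.9 and 71.8 at 8 DAP. All 9 tested genes had every 8 DAP library above every 2 DAP library, as had 14.7% of all genes tested. All 9 stayed called without any 1 library, while the call of Migut.A01025 was lost from the 8 libraries alone (adjusted p = 0.0136).

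Among the LEA genes, LEA7 (Migut.I00802) stood at 0.207, 0.383, 0.433 and 0.0902 at 2 DAP and at 135.1, 4.52, 339.1 and 344.6 at 8 DAP (log2 difference 9.52, SE 1.02, adjusted p = 6.5e-07, edgeR's quasi-likelihood test), a call that the blocked fit did not keep (adjusted p = 0.0159). The dehydrin Migut.B00209 had 2 counts at 2 DAP and 673 at 8 DAP, a ratio of normalized levels of 424.2 with a 95% counting interval of 117 to 3510. LEA5 (Migut.D00143) was the member not called, with 9.23 to 21.7 at 2 DAP and 17.1 to 24.8 at 8 DAP (log2 difference 0.41, SE 0.28, adjusted p = 0.280).

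**Figure D2:**
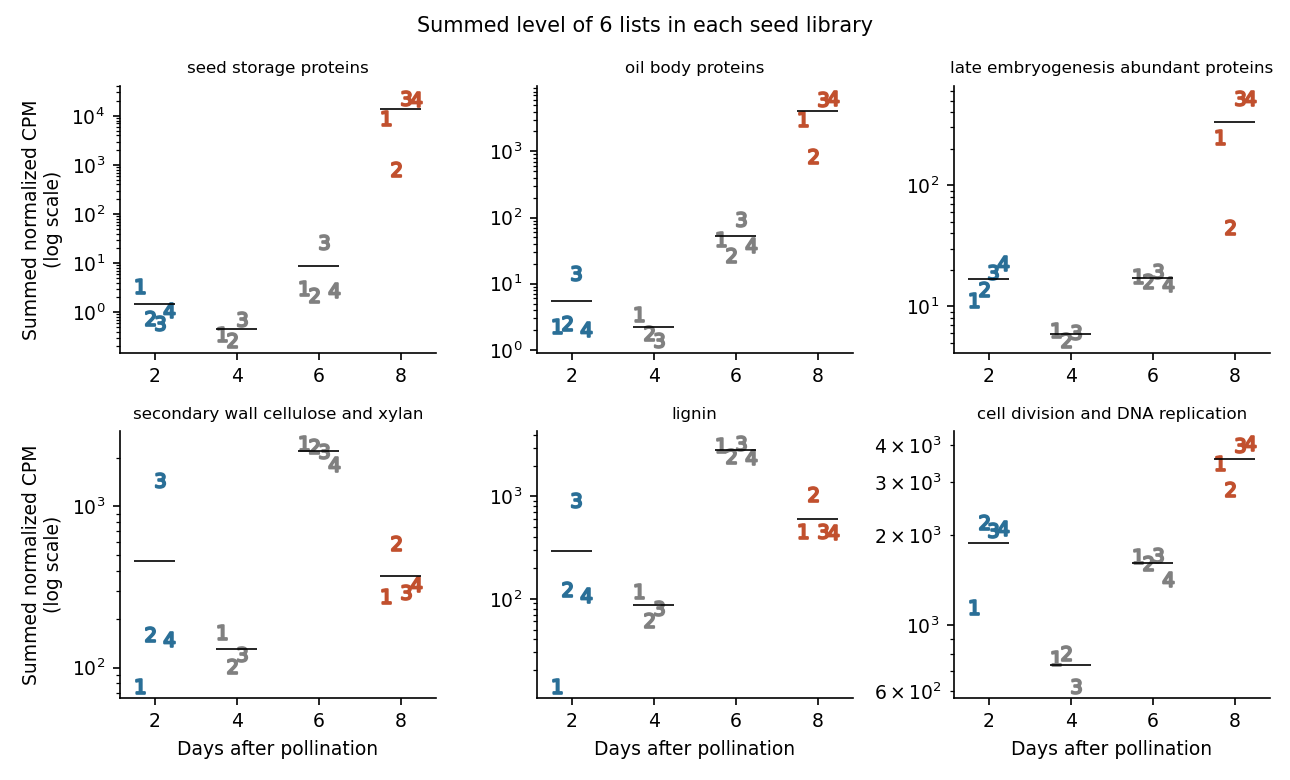
Each digit is 1 seed library, placed by its age (days after pollination, x axis) and the summed normalized CPM of a list (y axis, log scale), the digit being its replicate number and the bar the mean of an age. Storage, oil body and LEA sums were highest at 8 DAP with replicate 2 lowest of its age, wall and lignin sums were highest at 6 DAP, and 2 DAP replicate 3 stood above the other 2 DAP libraries in both of these.

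The regulators of seed maturation divided by copy. ABI3 (Migut.D00511), the transcription factor through which abscisic acid acts on seed genes in Arabidopsis, had no count at 2 DAP and was at 27.9, 18.8, 33.5 and 43.5 at 8 DAP, at least 127-fold higher. WRI1 (Migut.B01163), an activator of glycolytic and fatty acid genes, went from 2.39, 3.74, 8.06 and 1.99 to 137.3, 117.4, 195.5 and 207.8 (log2 difference 5.35, SE 0.52, adjusted p = 2.4e-07, edgeR's quasi-likelihood test). L1L (LEC1-LIKE) had 3 copies, and only one of them, Migut.M01443, rose, from 0.726 to 4.22 at 2 DAP to 108.4 to 305.1 at 8 DAP (log2 difference 6.46, SE 0.57).

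The other L1L copies, Migut.M01289 and Migut.E01594, had log2 differences of -0.44 (adjusted p = 0.447) and -2.90 (adjusted p = 0.0141) in edgeR's quasi-likelihood test. For Migut.E01594 leaving out 2 DAP replicate 1 gave an adjusted p of 0.00823 and leaving out 8 DAP replicate 2 one of 0.00693, and DESeq2 one of 0.00112. FUS3 (Migut.F00019) rose from 0, 0.288, 2.43 and 0.181 to 5.11, 1.51, 14.6 and 20.8, and the ages overlapped. Its call (log2 difference 3.88, SE 1.06, adjusted p = 0.00785) was lost without any 1 of 2 DAP replicates 1, 2 and 4 or 8 DAP replicates 3 and 4 (adjusted p 0.0166 to 0.0330), and from the 8 libraries alone (0.0279). Both LEC1 copies, Migut.A00972 and Migut.K01122, were under the filter, with at most 1.47 in any of the 8 libraries.

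Genes that supply carbon for fatty acids were split as well, with 2 of 8 higher and 1 lower. Those that rose code for subunits of the plastid pyruvate dehydrogenase, which makes acetyl-CoA. The E2 subunit (EMB3003, Migut.C01244) went from 50.1, 75.4, 92.4 and 48.3 to 353.6, 291.3, 491.0 and 498.5, and the E1 alpha subunit (Migut.D01961) from between 45.7 and 129.0 to between 293.2 and 527.7. Their log2 differences were 2.62 (SE 0.30) and 2.33 (SE 0.35), with adjusted p of 1.6e-06 and 3.0e-05 in edgeR's quasi-likelihood test. An acyl carrier protein, ACP4 (Migut.I00607), fell from between 24.9 and 57.8 to between 3.95 and 8.25 (log2 difference -2.93, SE 0.48). Migut.A00612, Migut.B00475, Migut.D01277 and Migut.K00705 were not called. Without 2 DAP replicate 3 the adjusted p of Migut.K00705 was 0.00290 in edgeR's quasi-likelihood test. FAD2 (Migut.D00543), a desaturase of oleic acid, was at 135.9, 188.8, 198.0 and 122.2 at 2 DAP and at 245.9, 169.7, 397.3 and 416.5 at 8 DAP, overlapping in 8 DAP replicate 2 alone (log2 difference 0.93, adjusted p = 0.0119, or 0.00243 without 8 DAP replicate 2 and 0.00224 with DESeq2).

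Genes of abscisic acid (ABA), the hormone of seed maturation, were called in both directions, 6 higher and 4 lower of 17 tested. The last enzyme of ABA synthesis, AAO3 (Migut.D00722), rose from 5.39, 2.49, 4.59 and 3.34 to 47.7, 46.2, 32.2 and 37.5, while NCED6 (Migut.G00626), which cleaves the carotenoid precursor, fell from 3.53, 5.66, 9.45 and 8.03 to 0, 1.15, 0 and 0.913. Both were picked out after their values were seen. Neither pair of ages overlapped, and the log2 differences were 3.36 (SE 0.33, adjusted p = 2.8e-07) and -3.65 (SE 0.75, adjusted p = 0.00136) in edgeR's quasi-likelihood test.

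Among the receptors and phosphatases of ABA signalling, the receptor PYL9 (Migut.B01853) rose (log2 difference 1.19, adjusted p = 0.00478) and the receptor PYL11 (Migut.G00115) fell (log2 difference -2.05, adjusted p = 0.00569), each with overlapping ages in edgeR's quasi-likelihood test. The value of PYL11 in 2 DAP replicate 4 was 278.2 against 16.1 to 79.7 in the other 3, and without it the log2 difference was -1.09 and the adjusted p 0.0650. The phosphatase HAB1 (Migut.D00949), a brake on the signal, fell from between 62.5 and 83.4 to between 22.1 and 27.6 (log2 difference -1.51, SE 0.22), and the related HAI3 (Migut.D00874), named after its values were seen, fell with overlapping ages (log2 difference -1.48, SE 0.37). Leaving out 1 library ended the calls of PYL9 (adjusted p 0.0131 to 0.0245), PYL11 (0.0122 to 0.0650) and HAI3 (0.0114 to 0.0226) in 5 of 8 cases each, and from the 8 libraries alone the adjusted p were 0.0130, 0.0434 and 0.0155. The blocked fit gave 0.283 for PYL11. Of the ABA genes, 8 of those tested came from the unselected stretch, with 3 higher and 0 lower.

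The gibberellin list was short, with 1 of 5 genes higher and 1 lower (9.9% and 10.3% over all genes tested). The genes called both code for enzymes that inactivate the hormone. GA2OX2 (Migut.H01362) had 3 counts at 2 DAP, all in replicate 2, and was at 12.7, 8.07, 25.5 and 24.03 at 8 DAP, a ratio of 297.1 with a 95% counting interval of 101.2 to 1444. GA2OX8 (Migut.H01552) went the other way, from 11.8, 15.1, 3.03 and 12.4 to 0.183, 0.621, 1.59 and 0.710 (log2 difference -3.78, SE 0.62, adjusted p = 8.4e-05, edgeR's quasi-likelihood test). GA20OX2 (Migut.C01290), an enzyme of synthesis, had 53.5 to 119.9 at 2 DAP and 23.4 to 44.7 at 8 DAP without being called (adjusted p = 0.0347, or 0.000453 in the blocked fit and 0.00416 from the 8 libraries alone).

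Auxin genes fell more often than they rose, 8 against 3 of 20. The 3 that rose, picked out after their values were seen, were both enzymes of the main path of auxin synthesis and an importer. YUC4 (Migut.A00287), a flavin monooxygenase of the last step, had no count at 2 DAP and was at 87.7, 52.8, 108.9 and 114.3 at 8 DAP, at least 373.5-fold higher. TAR2 (Migut.D01989), the aminotransferase of the step before, had 1 count at 2 DAP and 2536 at 8 DAP, a ratio of 3197 (95% counting interval 573.3 to 126300). The importer LAX2 (Migut.B00100) rose from between 0 and 0.830 to between 2.31 and 8.92 (log2 difference 3.71, SE 0.77, adjusted p = 0.000959, edgeR's quasi-likelihood test).

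Of the 8 auxin genes that fell, 7 were a receptor, repressors and response factors, and the other was a second LAX2 copy. That importer copy, Migut.N01303, named after its values were seen, went from 4.72, 2.97, 1.65 and 5.41 to 1.004, 0.443, 1.06 and 1.83, and the ages overlapped. Its call (log2 difference -1.77, SE 0.43, adjusted p = 0.00323) was lost without 2 DAP replicate 4 or 8 DAP replicate 1, 2 or 3 (adjusted p 0.0106 to 0.0140), from the 8 libraries alone (0.0372) and in the blocked fit (0.0367). The receptor AFB3 (Migut.K01481) fell from 68.1, 74.8, 48.7 and 73.3 to 26.8, 31.0, 29.5 and 31.4 (log2 difference -1.16, SE 0.18, adjusted p = 6.5e-05, edgeR's quasi-likelihood test). The repressor IAA14 (Migut.D01038), named after its values were seen, fell from between 6.76 and 34.7 to between 0.913 and 3.37, and the repressor IAA13 (Migut.D00477) from between 276.4 and 552.7 to between 181.1 and 208.2. The call of IAA13 (log2 difference -1.03) was lost without 2 DAP replicate 4 or 8 DAP replicate 3 or 4 (adjusted p 0.0103 to 0.0136), from the 8 libraries alone (0.0137) and in the blocked fit (0.0304). Among the copies of the response factor ARF19, Migut.L01914 had a log2 difference of -2.88 (SE 0.33, adjusted p = 1.6e-06, edgeR's quasi-likelihood test). Migut.L01587 had one of -0.07 (SE 0.28, adjusted p = 0.886), and was at 13.1 to 15.2 at 2 DAP and at 11.3 to 15.5 at 8 DAP. A further copy that the study names, Migut.J00834, is given by its counts only, 860 at 2 DAP and 228 at 8 DAP.

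**Figure D3:**
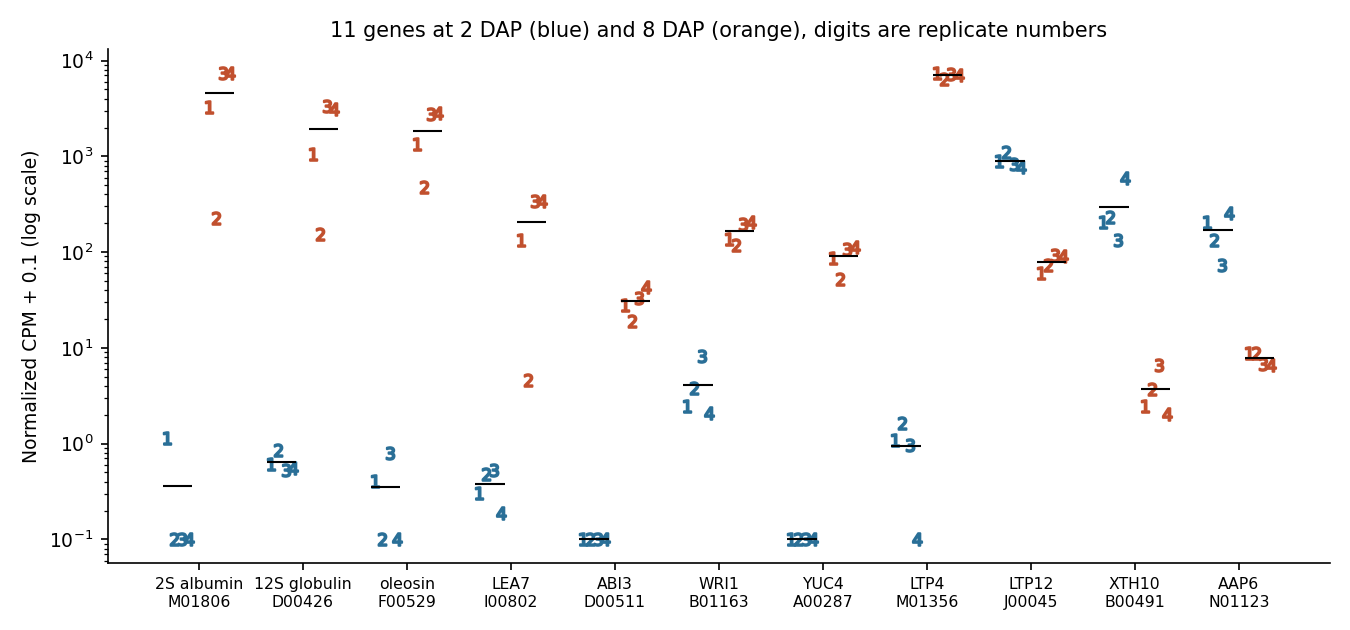
Each digit is the normalized CPM (y axis, log scale, 0.1 added so that a value of 0 can be drawn) of 1 gene in 1 library, blue for 2 DAP and orange for 8 DAP, with the replicate number as the digit and a bar at the mean of the age. In all 11 genes, which were picked for the plot, the ages were wholly apart, as in 28.2% of all genes tested. LTP4 had 6491 to 7449 in all 8 DAP libraries, while the storage gene Migut.M01806 had 225.3 in replicate 2 and 3267 to 7488 in the others.

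Genes of cell division and DNA replication were called in 1 direction only, with 12 of 37 higher, 0 lower and 25 not called by edgeR's quasi-likelihood test. A histone H3 gene (Migut.D00565) rose from 32.2, 71.1, 95.6 and 74.0 to 460.9, 331.7, 558.6 and 562.2, and the H2A gene HTA5 (Migut.D00242) from between 48.0 and 119.4 to between 373.5 and 555.8. Their log2 differences were 2.81 (SE 0.44) and 2.36 (SE 0.42), with adjusted p of 5.8e-05 and 0.000220. The fork protein CDC45 (Migut.D02501), the sliding clamp PCNA2 (Migut.D02143), the helicase subunit MCM7 (Migut.D00627) and the centromere histone CENH3 (Migut.B01088), all picked after their values were seen, rose by log2 differences of 2.76, 1.59, 1.56 and 1.63.

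Other members of the same list were not called. A histone H4 gene (Migut.J00346) had 289.6, 758.3, 553.0 and 744.8 at 2 DAP and 421.7 to 628.5 at 8 DAP, with a log2 difference of -0.09 (adjusted p = 0.882) that changed sign without 2 DAP replicate 2 or 4 or 8 DAP replicate 2 (0.02 to 0.06). CKS2 (Migut.D02301), a cofactor of cyclin-dependent kinases, had 147.4 in 2 DAP replicate 1, 389.6 to 417.0 in the other 2 DAP libraries and 163.3 to 209.6 at 8 DAP (adjusted p = 0.107). Across the list, 30 of 37 members had a positive log2 difference, with a median of 0.73. At an unadjusted p under 0.05, 19 members were higher and 4 lower, DESeq2 called 14 higher and 1 lower, and edgeR's likelihood ratio test called 13 higher and 1 lower. Of 9 tested members from the unselected stretch, 1 was higher.

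Of the chromatin regulators, 6 of 12 rose and 1 fell. FIE (Migut.M01812), a core subunit of the Polycomb complex that represses endosperm growth before fertilization in Arabidopsis, fell from 44.9, 60.8, 62.1 and 81.0 to 30.2, 29.2, 24.3 and 25.04 (log2 difference -1.19, SE 0.21, adjusted p = 0.000209, edgeR's quasi-likelihood test). The DNA methyltransferase CMT3 (Migut.D02536) rose from 9.85, 7.48, 12.8 and 7.94 to 25.7, 23.9, 26.3 and 25.9 (log2 difference 1.42, SE 0.22, adjusted p = 5.9e-05). ULT1 (Migut.E00987), a trithorax-type factor picked after its values were seen, had 1 count at 2 DAP and 101 at 8 DAP, a ratio of 127.3 (95% counting interval 22.3 to 5078). The number of rises in this list was 3 without 2 DAP replicate 2 or 4, and 4 without 8 DAP replicate 2 or 3. MBD13 (Migut.E01117), a methyl-DNA binding protein (log2 difference 0.90, SE 0.22), lost its call without 2 DAP replicate 2 or 4 or 8 DAP replicate 3 or 4 (adjusted p 0.0123 to 0.0220), from the 8 libraries alone (0.0183) and in the blocked fit (0.0247).

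The 3 tested genes for ZHOUPI (ZOU) and ICE1, partner transcription factors that act in the endosperm in Arabidopsis, all rose. The ZOU copy Migut.B00361 had no count at 2 DAP and was at 7.67, 5.23, 8.07 and 12.7 at 8 DAP, at least 34.6-fold higher. The other ZOU copy, Migut.N01183, went from 0.259, 0.863, 3.47 and 1.17 to 10.9, 12.6, 9.98 and 13.1, and ICE1 (Migut.D01191) from 0, 0.192, 3.73 and 0.0902 to 24.3, 15.4, 36.1 and 29.9. The log2 differences of the latter were 3.03 (SE 0.54, adjusted p = 0.000374) and 4.75 (SE 0.84, adjusted p = 0.000205) in edgeR's quasi-likelihood test. In both, 2 DAP replicate 3 was the highest of its age. The call of ICE1 was lost from the 8 libraries alone (adjusted p = 0.0108) and in the blocked fit (0.0340). The primers that the study designed for real-time PCR of ZOU are shown because they fix which copy is meant, Migut.N01183, and each is written 5′ to 3′ with no part marked.
Migut.N01183 forward: ggtttcgtcggatcggaatag
Migut.N01183 reverse: gctgcagctagcctgtatatc

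Over the 3 lists of the secondary wall, 7 of 41 tested genes were called (17.1%, against 20.2% of all genes tested), and values within an age were wide. Of 19 genes for cellulose and xylan, 2 rose and 1 fell, none of 10 lignin genes was called by edgeR's quasi-likelihood test or by DESeq2 (at an unadjusted p under 0.05, 1 was higher and 1 lower, and edgeR's likelihood ratio test called 1 lower), and 4 of 12 regulators fell. The cellulose synthase IRX1 (Migut.M01014) was at 0.726, 18.8, 216.8 and 15.2 at 2 DAP and at 34.7, 106.9, 47.6 and 55.0 at 8 DAP, and the lignin laccase LAC17 (Migut.J00316) was at 0.363, 17.2, 174.2 and 10.9 and at 57.7, 361.8, 61.5 and 46.5. Replicate 3 was the highest 2 DAP library in 10 of 10 lignin genes and 14 of 19 cellulose and xylan genes, replicate 1 the lowest in 10 and 12 of them, and replicate 2 the highest 8 DAP library in 10 and 15.

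Single libraries decided values in these lists. Without 2 DAP replicate 3 the log2 difference of IRX1 went from -0.04 to 2.40 and that of LAC17 from 1.38 to 3.79 (adjusted p 0.0209 and 0.00278 in edgeR's quasi-likelihood test), the lignin list had 2 calls, LAC17 and the reductase CCR1 (Migut.D01122, log2 difference 2.97), and the cellulose and xylan list had 4 rises. Without 2 DAP replicate 1 the cellulose and xylan list had 0 rises and 1 fall. At 6 DAP, between the ages compared, IRX1 had a mean of 323.2, LAC17 one of 1002, and the summed levels of the cellulose and xylan list and the lignin list were 2219 and 2855.

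The genes called among those for cellulose and xylan were all picked out after their values were seen. IRX6 (COBL4, Migut.D01624), a protein of cellulose deposition, went from 0.363, 1.15, 10.1 and 1.08 to 24.9, 52.1, 14.02 and 16.7 (log2 difference 3.096, SE 0.78, adjusted p = 0.00452), and an IRX15-L copy (Migut.B00370) from between 0.347 and 2.11 to between 2.84 and 13.6 (log2 difference 2.30, SE 0.61, adjusted p = 0.00628), in edgeR's quasi-likelihood test. Each call was lost in 4 or 5 of the 8 fits without 1 library (adjusted p 0.0104 to 0.0196 and 0.0105 to 0.0376) and from the 8 libraries alone (0.0320 and 0.0128), and the blocked fit gave 0.127 for IRX6. The list had 1 call in the blocked fit and 0 from the 8 libraries alone, and GUX1 was under the filter in both. The xylan glucuronosyltransferase GUX1 (Migut.H00742) had 70 counts at 2 DAP and 1 at 8 DAP, a ratio of 55.5 (95% counting interval 9.65 to 2224).

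Among the wall regulators, KNAT7 (Migut.A00907), a homeobox factor, fell from 150.0, 267.2, 259.5 and 353.4 to 53.1, 48.5, 53.5 and 58.3 (log2 difference -2.27, SE 0.25, adjusted p = 9.7e-07, edgeR's quasi-likelihood test). The factor SND2 (Migut.H01467), picked after its values were seen, fell from 1.82, 1.53, 20.5 and 6.23 to between 0 and 0.266 (log2 difference -5.62, SE 0.95). A pair of MYB69 copies, Migut.L00966 and Migut.L00879, also fell (log2 differences -2.20 and -2.23), and each call was lost in 4 or 5 of the 8 fits without 1 library (adjusted p 0.0116 to 0.0238 and 0.0135 to 0.0230), from the 8 libraries alone (0.0268 and 0.0286) and in the blocked fit (0.106 and 0.135).

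Of 18 tested genes for pectin methylesterase inhibitors and invertase inhibitors, 5 rose and 4 fell. PMEI2 (Migut.N02793), an inhibitor of pectin demethylation, rose from 0.0519, 6.61, 44.7 and 1.08 to 836.4, 881.4, 790.7 and 752.5, and the invertase inhibitor C/VIF2 (Migut.M01476) from 0.259, 13.9, 82.3 and 5.69 to 607.5, 711.5, 544.2 and 548.2. The log2 differences were 5.96 (SE 1.02, adjusted p = 0.000136) and 4.57 (SE 0.91, adjusted p = 0.000649) in edgeR's quasi-likelihood test. In both, 2 DAP replicate 3 was far above the others of its age, and both calls were lost from the 8 libraries alone (adjusted p = 0.0211 and 0.0320) and in the blocked fit (0.0818 and 0.107). The other rises were in the inhibitor Migut.C00973 (log2 difference 4.39) and, named after their values were seen, in the PMEI2 copy Migut.I00331 (6.96) and the inhibitor Migut.B01486 (6.11).

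The inhibitors that fell had no count at all at 8 DAP. C/VIF1 (Migut.M00087), an invertase inhibitor, was at 21.7, 41.8, 13.1 and 59.1 at 2 DAP and so was at least 116.7-fold lower at 8 DAP, and Migut.I00636 was at 32.2, 12.6, 8.93 and 40.6, at least 81.1-fold lower. Named after their values were seen, Migut.M00123 was at 3.12 to 8.48 at 2 DAP and at least 21.7-fold lower at 8 DAP, and Migut.H00969 was at 3.22, 2.78, 0 and 2.62. The call of Migut.H00969 was lost in 7 of the 8 fits without 1 library (adjusted p 0.0150 to 0.0195) and from the 8 libraries alone (0.0105).

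Lipid transfer proteins (LTPs), small proteins of the cell surface that bind lipids, were called in both directions, with 3 of 14 higher and 6 lower. LTP4 (Migut.M01356), which had more counts at 8 DAP than any other list gene, was at 0.985, 1.53, 0.867 and 0 at 2 DAP and 7449, 6491, 7155 and 7083 at 8 DAP (log2 difference 13, SE 1.16, adjusted p = 7.9e-08, edgeR's quasi-likelihood test). Its 8 DAP values lay within a narrow range, replicate 2 included. LTP6 (Migut.J00047) fell from 1673, 3878, 4804 and 3629 to 475.6, 894.1, 546.2 and 546.7, and LTP12 (Migut.J00045) from 894.0, 1099, 831.8 and 774.2 to 60.3, 73.1, 93.6 and 90.7. Their log2 differences were -2.51 (SE 0.37) and -3.50 (SE 0.27). The LTP12 copy Migut.G01285 fell from 59.8, 654.9, 1157 and 535.8 to 39.6, 88.4, 106.5 and 124.1, and the ages overlapped. This call (log2 difference -2.75, SE 0.63) did not hold from the 8 libraries alone (adjusted p = 0.0121). A different LTP12 copy, Migut.J00049, picked after its values were seen, had 1 count at 2 DAP and 264.9, 78.6, 383.9 and 421.4 at 8 DAP. LTP7 (Migut.B01539), likewise picked, rose from between 0 and 0.812 to between 3.72 and 71.4 with replicate 2 the lowest.

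Cystatins, inhibitors of cysteine proteases, gave 2 rises among 14 genes, where 9.9% of all genes tested rose. DESeq2 called 5 higher and 1 lower and edgeR's likelihood ratio test 5 higher and 2 lower. CYS5 (Migut.H02225) went from 0.259, 0.479, 2.08 and 0.0902 to 293.3, 299.3, 236.4 and 298.2 (log2 difference 8.63, SE 0.66, adjusted p = 2.7e-08, edgeR's quasi-likelihood test). The CYS5 copy Migut.H01610 had 236.2 in 8 DAP replicate 2 against 10.1 to 33.3 in the other 3, and without that library its log2 difference went from 2.97 to 0.96 and its adjusted p from 0.00929 to 0.249. The call was also lost without 2 DAP replicate 1, 2 or 4 (adjusted p 0.0240 to 0.0323), from the 8 libraries alone (0.123) and in the blocked fit (0.435). The list had 4 rises without 2 DAP replicate 3, 8 DAP replicate 3 or 8 DAP replicate 4, and 1 without 2 DAP replicate 1, 2 or 4 or 8 DAP replicate 2. A summed level of 3788 at 6 DAP lay above every library of both ages (409.8 to 1997). The members Migut.M01408 and Migut.D00706 were not called, the latter with an adjusted p of 0.00262 in DESeq2.

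Genes that loosen walls in growing cells, expansins and the xyloglucan endotransglucosylase/hydrolases (XTHs), fell in 13 of 29 tested cases and rose in 4. XTH10 (Migut.B00491) fell from 208.3, 233.8, 135.0 and 595.0 to 2.37, 3.64, 6.58 and 1.93 (log2 difference -6.34, SE 0.72, adjusted p = 1.4e-06, edgeR's quasi-likelihood test). The expansin EXPB4 (Migut.F01696), picked after its values were seen, fell from 40.2, 52.7, 43.3 and 90.3 to 0.274, 0.266, 0 and 0 (log2 difference -8.54, SE 0.70). In both the ages were wholly apart. Of the genes that rose, XTH2 (Migut.A01143) went from 1.76, 6.42, 29.3 and 3.88 to 1016, 798.3, 648.8 and 709.9 (log2 difference 6.27, SE 0.72), and XTH28 (Migut.N01522), XTH2 (Migut.A01016) and XTH3 (Migut.A00993), named after their values were seen, had log2 differences of 6.21, 4.45 and 2.00. The blocked fit did not call Migut.A01016 (adjusted p = 0.0555).

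The members with the highest normalized CPM that were not called, XTH30 (Migut.B01445) and EXPB4 (Migut.F01690), had log2 differences of -0.57 and -0.15 (adjusted p = 0.251 and 0.801 in edgeR's quasi-likelihood test). The part of this list from the unselected stretch had 7 falls and 3 rises among 11 tested genes. The counts for the list were 4 rises and 13 or 14 falls whichever 1 library was left out.

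Flavonoid genes, which color the seed coat in Arabidopsis, rose in 3 of 7 cases and fell in 2. The homologues of TT7, the flavonoid hydroxylase, took both paths. Migut.D01697 rose from 51.6, 100.9, 159.1 and 80.2 to 2836, 3087, 2682 and 2713, and Migut.C01354 fell from 100.2, 74.5, 92.3 and 140.5 to 5.02, 20.3, 3.72 and 4.87. The log2 differences were 4.85 (SE 0.43, adjusted p = 7.3e-08) and -3.58 (SE 0.49, adjusted p = 1.1e-05) in edgeR's quasi-likelihood test. Of the remaining TT7 copies, Migut.C01351 fell (log2 difference -3.63) and Migut.L00080 was not called. TT10 (Migut.C00171), a laccase that oxidizes seed coat flavonoids, rose from between 15.2 and 134.3 to between 457.7 and 598.8, and FLS1 (Migut.C01158), a flavonol synthase, from between 0.671 and 2.86 to between 7.63 and 13.3.

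Carriers of sugars and amino acids were evenly split, 4 higher and 4 lower of 17. The amino acid permease AAP6 (Migut.N01123) fell from 208.5, 132.5, 73.9 and 258.4 to 8.76, 8.69, 6.69 and 6.49 (log2 difference -4.46, SE 0.38, adjusted p = 5.6e-08, edgeR's quasi-likelihood test). AAP8 (Migut.A00182), picked after its values were seen, rose from between 0 and 0.288 to 28.7, 20.8, 27.1 and 22.1 (log2 difference 7.30, SE 0.79). Of the SWEET sugar carriers, SWEET1 (Migut.C01105) rose from 187.4, 288.4, 789.0 and 611.8 to 1474, 1135, 1063 and 1142, and its neighbour in the annotation Migut.C01104, named after its values were seen, fell from between 43.0 and 79.8 to between 12.2 and 21.1.

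The other carriers called were the SWEET genes Migut.E00645 (log2 difference 6.78) and Migut.A01181 (-4.07) and the permeases AAP3 Migut.H00819 (3.56) and Migut.C01056 (-1.44), of which all but the last were named after their values were seen. The calls of Migut.C01105 (log2 difference 1.36, adjusted p = 0.00943, edgeR's quasi-likelihood test) and Migut.C01056 were each lost in 7 of the 8 fits without 1 library, with adjusted p of 0.0118 to 0.0384 and 0.0103 to 0.0223, and that of Migut.C01105 also from the 8 libraries alone (0.0244). The sucrose carrier SUC2 (Migut.C01230) was not called (log2 difference -0.52, adjusted p = 0.211).

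Lists that stand for other tissues and for stress gave mixed counts. Of 8 genes of photosynthesis, 1 was higher and 1 lower (9.9% and 10.3% over all genes tested). DESeq2 and edgeR's likelihood ratio test each called 3 higher and 3 lower and the blocked fit 3 higher and 1 lower. PORA (Migut.H01922), an enzyme of chlorophyll synthesis, fell from between 133.5 and 502.3 to between 21.3 and 46.6 (log2 difference -2.91, SE 0.42, adjusted p = 2.3e-05, edgeR's quasi-likelihood test), and the antenna protein LHCA5 (Migut.C00582) rose from between 3.03 and 7.57 to between 16.02 and 30.8. The antenna protein LHCB6 (Migut.B00625) was not called (log2 difference 1.22, adjusted p = 0.0176, or 0.00332 without 2 DAP replicate 3 and 0.00327 with DESeq2). The summed level of the list was 416.6 to 1494 at 2 DAP and 1097 to 1501 at 8 DAP. It had 4 calls without 2 DAP replicate 1 or replicate 3.

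The floral organ list had 2 falls among 4 tested genes. The petal and stamen genes PI (Migut.A00326) and AP3 (Migut.C00785) were not called, with at most 1.55 and 12.6 in any of the 8 libraries (PI had an adjusted p of 0.0131, or 0.00911 without 2 DAP replicate 3 and 0.00454 with DESeq2), and CRC (Migut.L01172), a carpel gene, had no count in any. The summed level of the list was 436.0 to 709.8 at 2 DAP and 75.3 to 118.1 at 8 DAP. It moved with the falls reported above, and its part in them was not tested.

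Of the heat shock list, 4 of 6 rose and 1 fell. The small heat shock protein HSP22.0 (Migut.B00710) went from between 0.0519 and 0.433 to 22.7, 8.42, 28.3 and 21.5 (log2 difference 6.59, SE 0.71, adjusted p = 7.0e-07, edgeR's quasi-likelihood test), HSP17.6II (Migut.A00100) from 0.882, 2.40, 15.7 and 6.05 to between 38.4 and 43.2, and an HSP20-like gene (Migut.D00720) fell from between 16.9 and 24.6 to between 1.52 and 4.26. The chaperone HSP101 (Migut.D01695) and the heat shock factor HSFA2 (Migut.L01507), named after their values were seen, had log2 differences of 1.37 and 1.46. The call of HSFA2 was lost without 2 DAP replicate 2 or 3 or 8 DAP replicate 1 (adjusted p 0.0108 to 0.0143) and from the 8 libraries alone (0.0184), and that of HSP17.6II in the blocked fit (0.0298). The summed level was 49.7 to 82.5 at 2 DAP and 93.8 to 116.7 at 8 DAP, and the part of stress in the results was not tested.

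Outside the lists, the 10 largest rises and 10 largest falls among abundant genes whose ages did not overlap were read for what they are. Of the rises, 4 were the 2S albumins Migut.J01035, Migut.H00699, Migut.M01806 and Migut.M01805, and 3 were GDSL-type lipases, Migut.N01567, Migut.H02543 and Migut.H00072. The lipase Migut.H00072 was at 0.104, 0, 0 and 0.271 at 2 DAP and at 1453, 609.6, 1771 and 1724 at 8 DAP. Migut.H00082, for which the tables at hand give no homologue, had no count at 2 DAP and was at 445.3, 273.5, 620.8 and 601.5 at 8 DAP, at least 1993-fold higher. MFT (Migut.I00451), a phosphatidylethanolamine-binding protein that acts on germination in Arabidopsis, had no count at 2 DAP and was at 203.2, 92.9, 263.1 and 248.1 at 8 DAP, at least 829-fold higher. The remaining gene, the galactosyl transferase Migut.L00420, was at least 452.2-fold higher.

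Among the 10 largest falls, 9 had no count at 8 DAP. Migut.N01389, with no homologue in the tables, was at 20.3, 86.6, 16.3 and 22.4 at 2 DAP, and so was at least 125.2-fold lower at 8 DAP. They held the invertase inhibitors C/VIF1 and Migut.I00636 given above, the cysteine-rich proteins LCR12 (Migut.K00030, at least 80.3-fold lower) and LCR76 (Migut.E00474, at least 55.2-fold), and 3 members of the self-incompatibility S1 family, Migut.G01031, Migut.F01926 and Migut.F01925. Of these, Migut.F01925 had 1716 counts at 2 DAP and 1 at 8 DAP, a ratio of 1361 (95% counting interval 244 to 53790). LCR76 was at 0.104 in 2 DAP replicate 1 against 11.01 to 35.4 in the others, and its call was lost from the 8 libraries alone (adjusted p = 0.0369). A basic helix-loop-helix factor, Migut.K01326, and the unnamed Migut.D00324 completed the group (at least 56.8-fold and 59.1-fold lower).

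Genes that share a nearest homologue could go apart, as in TT7. Of 475 homologues with at least 2 tested genes, 133 had at least 2 genes called, and of these 46 had calls only upward, 36 only downward and 51 in both directions. In the unselected stretch 20 homologues had at least 2 genes called, 4 of them only upward, 6 only downward and 10 in both directions. Calls over all genes tested were split near evenly, 2003 higher and 2078 lower. Opposite calls would thus be common even if sharing a homologue had no tie to direction, and such a tie was not tested. The pairs drawn were chosen after their values were seen. Besides those given above they include the nuclease ENDO2, where Migut.E00354 fell from 15.04, 29.9, 25.5 and 27.9 to 0, 0.177, 0.319 and 0 and Migut.E00353 rose from 2 counts to 32.0, 52.6, 6.48 and 4.56, and the fatty acid elongase KCS12, where Migut.D02144 fell from between 39.4 and 59.3 to between 0.913 and 3.28 and Migut.F02028 rose from between 0 and 0.959 to between 54.2 and 81.8. The call of Migut.E00353 was lost without 2 DAP replicate 1 (adjusted p = 0.0110, edgeR's quasi-likelihood test).

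Further pairs were the defensin PDF2.2, with Migut.E00478 falling from 1648, 5534, 7575 and 5298 to between 533.4 and 827.9 and Migut.E00475 rising from between 0 and 0.173 to between 12.5 and 47.5, the transfer protein LTP4, with Migut.G01288 falling from between 23.1 and 143.5 to between 17.4 and 21.7 beside the rise of Migut.M01356, and XTH2, with Migut.A01015 falling from between 20.6 and 61.8 to between 0 and 5.32 beside the rise of Migut.A01143. The call of Migut.G01288 was lost in 5 of the 8 fits without 1 library (adjusted p 0.0103 to 0.0133), and that of Migut.A01015 in the blocked fit (0.106). No member of these pairs had overlapping ages.

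**Figure D4:**
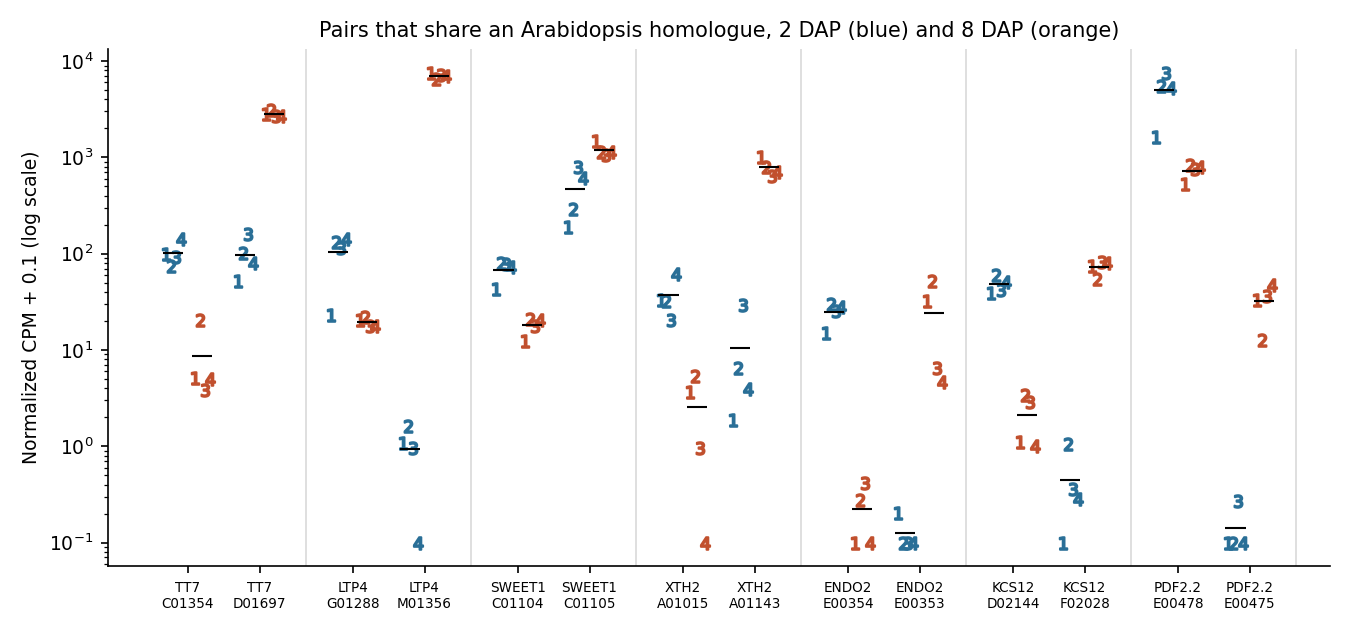
Each digit is the normalized CPM (y axis, log scale, 0.1 added) of 1 gene in 1 library, blue for 2 DAP and orange for 8 DAP, the digit being the replicate number and the bar the mean of the age, with pairs that share an Arabidopsis homologue side by side. In each of the 7 pairs the left gene was lower at 8 DAP and the right gene higher, from SWEET1, where both genes were measurable at both ages, to ENDO2, where each gene was near 0 at one age.

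Some gene families, grouped by the wording of their annotation after values were seen and so given as counts only, had one direction and others both. The self-incompatibility S1 family, named for a pollen rejection protein of poppy, had 21 higher and 27 lower of 71 tested, all from tables the study had picked. GDSL lipases had 10 higher and 3 lower of 23. Low-molecular-weight cysteine-rich proteins and defensins had 5 higher and 8 lower of 15. Gibberellin-regulated GASA genes had 8 lower and 5 not called of 13, and pectin acetylesterases, which remove acetyl groups from pectin, 1 higher and 6 lower of 11, of which 10 were from the unselected stretch. Pentatricopeptide repeat genes, which act on RNA in organelles, had 2 higher and 23 not called of 25. Over all 4521 tested genes with a row in the study's annotation, 677 were higher and 797 lower.

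The ages in between show when the genes that differ did so. For the 2003 genes that rose, the largest step in fitted log2 level was from 6 DAP to 8 DAP in 958 (47.8%), from 4 DAP to 6 DAP in 914 (45.6%) and from 2 DAP to 4 DAP in 131 (6.54%). For the 2078 that fell, the numbers were 1158 (55.7%), 561 (27.0%) and 359 (17.3%). Storage genes took a median step of 2.64 from 4 DAP to 6 DAP and of 10.93 from 6 DAP to 8 DAP on the fitted log2 scale, and oil body genes one of 5.18 and one of 6.04. Of the 14 storage genes, 6 had no count at 2 DAP, and the mean of the list's sum was 0.451 at 4 DAP and 8.66 at 6 DAP. The storage step from 4 DAP to 6 DAP thus rests on counts near 0. Among the 16161 genes not called between 2 DAP and 8 DAP, 282 had a 6 DAP level above both ages by over 2 on the log2 scale and 101 were below both. These steps share libraries with the contrast and are a description.

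Of the 20 genes with the most counts at 2 DAP, 6 fell and 14 were not called, and of the 20 at 8 DAP, 9 rose and 11 were not called. The lists shared 7 genes. The reference genes that the study used for real-time PCR were not called, PEX4 (Migut.A00226) with 52.6, 140.4, 173.3 and 180.9 at 2 DAP and 102.1 to 143.8 at 8 DAP (log2 difference -0.18, adjusted p = 0.701), and EF1A (Migut.D02188) with 143.1 to 304.7 and 251.1 to 386.1 (log2 difference 0.45, adjusted p = 0.437).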

How the data were processed

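The authors trimmed the reads with Trimmomatic, aligned them (STAR) against a pseudo-genome for each parent, merged the alignments, and deposited raw counts per gene of uniquely mapped, properly paired reads (featureCounts). The versions they used are not given in the sources used here. Here the counts of all 20 libraries were fitted by age in edgeR 4.0.16 (R 4.3.3) with TMM scaling, keeping the 20242 genes that had over 1 CPM in 3 or more libraries, and 8 DAP was set against 2 DAP by the quasi-likelihood F test with Benjamini-Hochberg adjustment at 0.01. The authors took genes that passed both edgeR's likelihood ratio test over successive ages and a time-series regression (Next maSigPro) with the mother as batch. Of these only the likelihood ratio test was run here, on 8 DAP against 2 DAP, as an alternative beside DESeq2 1.42.0. The SE is the log2 difference over the square root of F. Totals of 12134820 to 16121733 counts set the precision. Scripts were tested on simulated counts. There the fit recovered 62% of 100 genes with a true log2 change of 2 and 3% of 100 with one of 1. Only these genes changed among the 19795 simulated, while 4081 of 20242 were called in the data. The adjustment is stricter where fewer genes change, so these shares do not carry over to the data. A gene that was not called may still have changed.

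A rule selected for naming the 10 largest rises and 10 largest falls (mean log2 CPM of at least 3, ages not overlapping) and all members of lists of up to 8 genes. It also took the 4 members of each longer list with the highest normalized CPM and list genes entered from the study's text, 134 in all. Not all of these are described one by one above, and those left out include genes that were not called. Some list genes that the text also names, such as YUC4, TAR2 and Migut.J00834, were not entered from it and fell outside this rule. A further 47 were named after their values were seen. Results of 1 gene list are not reported here. The members and lists were chosen with earlier results of these data known. Homologues came from the study's annotation tables, and no genome was used.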

Additional observations from a re-analysis of the deposited data

Results flagged for a closer look

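Each of 322 sets of 4 values (1 named gene at 1 age) was looked at for a library whose gap to the nearest other exceeded Dixon's 95% critical value, and 49 sets (15.2%) held one. In 14 of these the other 3 libraries were at 0, and such a set passes that value whatever its counts. Of the other 308 sets, 35 (11.4%) held one, where chance gives about 1 in 20 for values that follow a normal distribution, which low counts need not do. Of the 49, 20 were in 2 DAP replicate 3 and 13 in 8 DAP replicate 2. All values below are normalized CPM.

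2 DAP replicate 1 was the highest of its age and far from the others with 1.04 for Migut.M01806 (2S albumin, SESA3), 0.882 for Migut.M01805 (2S albumin, SESA5), 0.104 for Migut.B00209 (dehydrin), 0.0519 for Migut.D01989 (TAR2), 0.0519 for Migut.E00987 (ULT1), 0.0519 for Migut.J00049 (LTP12) and 0.104 for Migut.E00353 (ENDO2). 2 DAP replicate 1 was the lowest of its age and far from the others with 147.4 for Migut.D02301 (CKS2). 2 DAP replicate 2 was the highest of its age and far from the others with 86.6 for Migut.N01389 (no homologue), 0.671 for Migut.E01386 (LEA group 1) and 0.288 for Migut.H01362 (GA2OX2). 2 DAP replicate 3 was the highest of its age and far from the others with 9.10 for Migut.A01025 (oleosin, OLE1), 2.43 for Migut.F00019 (FUS3), 435.9 for Migut.L00176 (IRX15-L), 262.2 for Migut.D00465 (IRX5), 216.8 for Migut.M01014 (IRX1), 128.7 for Migut.K01051 (IRX10), 408.0 for Migut.D01122 (CCR1, IRX4), 174.2 for Migut.J00316 (LAC17), 82.3 for Migut.L01996 (LAC4, IRX12), 60.3 for Migut.F01429 (LAC4, IRX12), 3.73 for Migut.D01191 (ICE1), 44.7 for Migut.N02793 (PMEI2), 82.3 for Migut.M01476 (C/VIF2), 29.3 for Migut.A01143 (XTH2), 0.694 for Migut.G00630 (CHS, TT4), 10.1 for Migut.D01624 (IRX6, COBL4), 31.2 for Migut.A01016 (XTH2), 0.520 for Migut.E00645 (SWEET family), 1.65 for Migut.G00483 (caleosin, CLO1) and 0.173 for Migut.E00475 (PDF2.2).

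8 DAP replicate 1 was the highest of its age and far from the others with 0.0913 for Migut.H00742 (GUX1) and 38.3 for Migut.D00627 (MCM7). 8 DAP replicate 2 was the highest of its age and far from the others with 0.355 for Migut.A00972 (LEC1), 57.0 for Migut.K01051 (IRX10), 549.8 for Migut.D01122 (CCR1, IRX4), 361.8 for Migut.J00316 (LAC17), 46.4 for Migut.L01996 (LAC4, IRX12), 894.1 for Migut.J00047 (LTP6), 236.2 for Migut.H01610 (CYS5), 20.3 for Migut.C01354 (TT7), 12.6 for Migut.C00785 (AP3) and 0.266 for Migut.F01694 (EXPB2). 8 DAP replicate 2 was the lowest of its age and far from the others with 32.9 for Migut.N01567 (GDSL lipase), 310.2 for Migut.D02143 (PCNA2) and 9.49 for Migut.D01695 (HSP101). 8 DAP replicate 3 was the highest of its age and far from the others with 0.106 for Migut.F01925 (S1 family) and 0.531 for Migut.L00253 (GA20OX2). 8 DAP replicate 3 was the lowest of its age and far from the others with 236.4 for Migut.H02225 (CYS5).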

How the results depend on the processing

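The 4081 calls became 6451 (3175 higher, 3276 lower) with only the libraries numbered 1 to 14, which leaves 2 DAP replicate 1 as the lone 2 DAP library, assumed to vary like the other groups, and 6296 (2915 higher, 3381 lower) at an adjusted p under 0.05. They numbered 3039 from the 8 libraries alone, 5100 with DESeq2, 5089 with the likelihood ratio test and 3177 to 4138 without 1 library. Library number as a covariate, entered as over 14 or not, gave 6019. All 8 DAP libraries and only replicate 1 of 2 DAP were numbered 14 or lower, so this covariate lies close to age. Other scalings and filters gave 3963 to 4113. The called list genes numbered 137 to 166 without 1 library. The methods and the record differ on which plants a replicate number stands for. Deviations of 2 DAP and 8 DAP libraries with the same number correlated by 0.26, -0.08, 0.06 and 0.01 across genes, which leaves the pairing unsettled, and only replicate 1 correlated best with its own number. A fit with the replicate block called 3485 genes (1891 higher, 1594 lower). No library pair was a repeat within counting noise, and low counts limit what can be read of genes near 0.

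Among the named genes, 23 calls were lost from the 8 libraries alone, with adjusted p of 0.0369 for Migut.E00474, 0.0136 for Migut.A01025, 0.0279 for Migut.F00019, 0.0434 for Migut.G00115, 0.013 for Migut.B01853, 0.0137 for Migut.D00477, 0.0268 for Migut.L00966, 0.0286 for Migut.L00879, 0.0183 for Migut.E01117, 0.0108 for Migut.D01191, 0.0211 for Migut.N02793, 0.032 for Migut.M01476, 0.0121 for Migut.G01285, 0.123 for Migut.H01610, 0.0244 for Migut.C01105, 0.032 for Migut.D01624, 0.0128 for Migut.B00370, 0.0105 for Migut.H00969, 0.0448 for Migut.N02035, 0.044 for Migut.O00476, 0.0184 for Migut.L01507, 0.0155 for Migut.D00874 and 0.0372 for Migut.N01303. The replicate block ended 15, with adjusted p of 0.0159 for Migut.I00802, 0.283 for Migut.G00115, 0.0304 for Migut.D00477, 0.106 for Migut.L00966, 0.135 for Migut.L00879, 0.0247 for Migut.E01117, 0.034 for Migut.D01191, 0.0818 for Migut.N02793, 0.107 for Migut.M01476, 0.435 for Migut.H01610, 0.0298 for Migut.A00100, 0.127 for Migut.D01624, 0.0555 for Migut.A01016, 0.106 for Migut.A01015 and 0.0367 for Migut.N01303, and made 4 (0.000453 for Migut.C01290, 0.00932 for Migut.A00867, 0.00892 for Migut.B00625 and 0.00325 for Migut.H00214). DESeq2 ended 2 and made 8, and gave no adjusted p for Migut.N02793 and for 4 genes not called in the report, and the likelihood ratio test ended 0 and made 8. Library number as a covariate ended 19 and made 5, total-count scaling ended 4 and made 6, and leaving out 1 library ended 6 to 13. Among those the covariate ended, the highest adjusted p were 0.731 for Migut.G01288, 0.498 for Migut.G00115, 0.486 for Migut.G01285, 0.463 for Migut.L00966 and 0.380 for Migut.L00879. The calls in these counts kept their direction, because genes whose log2 difference changed sign were left out of them. Of the genes left out, Migut.J00346, not called in the report, was called higher with the covariate (log2 difference 0.99). Calls with only the libraries numbered 1 to 14 are not counted, as a lone 2 DAP library has no spread of its own. The reported falls of Migut.G00115, Migut.L00966, Migut.L00879 and Migut.G01285 changed sign there (0.76, 0.55, 0.29 and 0.59).

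The log2 differences below changed sign against the value of the report, and the cause was not tested. From the 8 libraries alone they were 0.024 for Migut.M01014. With total-count scaling they were 0.078 for Migut.M01014, -0.0089 for Migut.L00080 and -0.21 for Migut.C00785. With the replicate block they were 0.018 for Migut.A00283, 0.94 for Migut.L00176, 1.92 for Migut.D00465, 2.00 for Migut.M01014, 0.47 for Migut.K01051, 1.11 for Migut.L01996, 0.998 for Migut.F01429 and 0.00058 for Migut.J00346. With library number as a covariate they were 0.46 for Migut.M01289, 1.52 for Migut.A00283, 0.23 for Migut.D00373, 0.28 for Migut.L01587, 5.93 for Migut.L00176, 2.24 for Migut.D00465, 4.32 for Migut.M01014, 0.55 for Migut.K01051, 1.88 for Migut.L01996, 6.10 for Migut.F01429, 0.99 for Migut.J00346, 0.38 for Migut.D02301, 0.0099 for Migut.B01445, 1.06 for Migut.F01690 and -0.063 for Migut.C00785. With the libraries numbered 1 to 14 they were 1.07 for Migut.M01289, 0.76 for Migut.G00115, 1.57 for Migut.A00283, 0.29 for Migut.D00373, 0.061 for Migut.L01587, 8.30 for Migut.L00176, 5.83 for Migut.D00465, 6.38 for Migut.M01014, 2.12 for Migut.K01051, 3.94 for Migut.L01996, 6.26 for Migut.F01429, 0.55 for Migut.L00966, 0.29 for Migut.L00879, 0.94 for Migut.J00346, 0.36 for Migut.D02301, 0.59 for Migut.G01285, 0.53 for Migut.B01445, 1.04 for Migut.F01690, 0.0040 for Migut.C01230 and -0.22 for Migut.C00785. Without 1 library they ranged from -0.73 to 0.0055 for Migut.M01289, -0.59 to 0.28 for Migut.A00283, -4.29 to 0.80 for Migut.L00253, -0.14 to 0.017 for Migut.L01587, -2.18 to 1.21 for Migut.L00176, -0.63 to 2.32 for Migut.D00465, -0.46 to 2.40 for Migut.M01014, -0.86 to 1.14 for Migut.K01051, -1.78 to 2.33 for Migut.L01996, -1.42 to 1.75 for Migut.F01429, -0.31 to 0.060 for Migut.J00346, -0.40 to 0.028 for Migut.F01690, -0.26 to 0.40 for Migut.L00080 and -0.16 to 0.16 for Migut.C00785.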
